A study of Homo sapiens with 72 samples.

Results

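The 5 alpha-arrestin genes TXNIP, ARRDC1, ARRDC2, ARRDC3 and ARRDC4 and MLXIP, which encodes the glucose-responsive transcription factor MondoA, were followed through 72 RNA-seq libraries. These 6 genes were taken by symbol from a table of 62266 genes. The set was chosen on TXNIP, whose level in VK2 cells that received spermine and then bacteria was already known to be high, and the other 5 are its relatives and its regulator. For these 6 genes, every comparison that uses the spermine and bacteria libraries is therefore a description without a p-value, and the remaining comparisons were tested.

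The libraries came from 3 human epithelial cell lines immortalised with papillomavirus oncogenes, each of which is a single established line. Ecto comes from the ectocervix, Endo from the endocervix and VK2 from the vagina. Cells were left without pretreatment (NT) or received a polyamine for 4 h, which was putrescine (PUT) at 4 mM or, at 400 µM, spermidine (SPD) or spermine (SPM), and then live Gardnerella vaginalis at 10000000 CFU per well for 24 h (GV) or no bacteria (noGV). Each of the 8 conditions held 3 libraries per line, 24 in a line, all grown in the same serum-free keratinocyte medium. The question behind the series is whether polyamines, small positively charged amines, change how cervicovaginal epithelium responds to this bacterium.

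Alpha-arrestins are adaptor proteins that bring NEDD4-family ubiquitin ligases to receptors and transporters at the membrane. TXNIP binds thioredoxin and restrains glucose uptake, in part by removing the transporter GLUT1 (SLC2A1) from the cell surface, and ARRDC4 has a related effect on glucose uptake. ARRDC3 takes part in the trafficking of membrane receptors and of integrin beta4, and ARRDC1 drives the budding of small vesicles from the plasma membrane. MondoA, with its partner MLX, responds to glucose 6-phosphate and binds carbohydrate response elements, of which those of TXNIP and ARRDC4 are classic examples. Such an element is a pair of E-box-like half-sites that stand a few bases apart.

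The promoters of TXNIP and ARRDC4 are shown because these genes had the largest differences of the 6 and moved together, and that of ARRDC1 because it moved the opposite way. Each line gives the 250 bases before the transcription start, 5′ to 3′ on the gene's strand, from RefSeq on build GRCh38.p14, and capitals mark motif matches. The motifs, all searched on both strands, were the E-box CACGTG, the half-site pair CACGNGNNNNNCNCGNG (half-sites 5 bases apart), the box CCAAT, the TATA box TATAA, the FOXO element GTAAACA, the AP-1 site TGANTCA and the cAMP response element TGACGTCA, and they were chosen after the sequences had been seen.
TXNIP (chr1:145996580-145996829, minus strand): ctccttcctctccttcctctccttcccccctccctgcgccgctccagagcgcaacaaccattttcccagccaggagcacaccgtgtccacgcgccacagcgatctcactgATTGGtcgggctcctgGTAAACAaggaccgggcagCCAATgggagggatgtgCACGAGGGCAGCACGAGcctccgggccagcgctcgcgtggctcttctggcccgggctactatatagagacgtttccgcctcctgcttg
ARRDC4 (chr15:97960453-97960702, plus strand): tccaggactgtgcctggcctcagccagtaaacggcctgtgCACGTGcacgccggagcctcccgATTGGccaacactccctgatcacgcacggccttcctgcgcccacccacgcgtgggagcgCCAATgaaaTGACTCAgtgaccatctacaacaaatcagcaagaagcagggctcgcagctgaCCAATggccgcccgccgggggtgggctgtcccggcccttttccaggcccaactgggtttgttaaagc
ARRDC1 (chr9:137605436-137605685, plus strand): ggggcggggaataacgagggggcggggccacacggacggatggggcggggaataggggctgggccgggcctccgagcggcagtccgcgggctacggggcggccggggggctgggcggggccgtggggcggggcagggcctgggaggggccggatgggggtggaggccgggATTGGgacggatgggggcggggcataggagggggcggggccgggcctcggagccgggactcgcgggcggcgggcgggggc

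In TXNIP the half-site pair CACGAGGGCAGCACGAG began 88 bases before the start, and 0.424% of 35116 promoter windows of the same length held a match to the pair. The same window held CCAAT boxes 140 and 105 bases before the start and GTAAACA at 124 bases, a motif found in 2.98% of windows. ARRDC4 held no match to the pair, but it held the E-box CACGTG 210 bases before its start, found in 6.34% of windows, 3 CCAAT boxes and the AP-1 site TGACTCA at 119 bases, found in 6.57%. In ARRDC1 the search found 1 CCAAT box at 80 bases, and CCAAT stood in 32% of all windows. MLXIP held a CCAAT box and the cAMP response element TGACGTCA at 57 bases, found in 1.65% of windows. ARRDC2 held the AP-1 site TGATTCA at 121 bases in 1 of its windows, and a CCAAT box and TATAA in the other. ARRDC3 held a CCAAT box in its first window and the FOXO element in its second. These matches are descriptions of the letters and not evidence of binding.

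On GRCh38 with annotation release 44 the genes lie on 6 chromosomes. TXNIP (ENSG00000265972.6) spans chr1:145992435-145996579 and ARRDC4 (ENSG00000140450.9) chr15:97960703-97973833. ARRDC2 (ENSG00000105643.11) spans chr19:18001132-18014102, and MLXIP (ENSG00000175727.15) chr12:122078756-122147344. ARRDC1 (ENSG00000197070.14, chr9:137605685-137615360) and ARRDC3 (ENSG00000113369.9, chr5:91368631-91383317) each overlap an antisense gene, ARRDC1-AS1 and ARRDC3-AS1. ARRDC1 also overlaps a long noncoding gene on its own strand, and ARRDC2 overlaps an unnamed transcript. The library kit keeps the strand of the RNA, but whether the counting used it is not stated in the sources used here, so how reads in the shared stretches were assigned is not known. ARRDC1-AS1 was at 20.1 CPM and ARRDC3-AS1 at 1.28 CPM in untreated Ecto cells.

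Library totals ran from 20152143 to 42767996 counts. The lowest count of any of the 6 genes in any library was 125 (TXNIP in Endo). All 6 genes passed the filter on low counts in all 3 lines. Nothing in the labels says that the 3 libraries of a group were separate cultures, so p-values measure the spread between these libraries, which may be technical. All 10 epithelial markers were at a median of at least 1 CPM in every line, against 1 or 2 of 6 fibroblast, 1 or 2 of 6 leukocyte and at most 1 of 5 endothelial markers. The summed markers of these other cell types reached at most 121.5 CPM in any library, where the summed epithelial markers were never below 7996 CPM. The library farthest from its own group was Ecto SPD+noGV replicate 3, with a root mean square distance of 0.38 in log2 CPM. In bulk RNA, less RNA per cell and fewer expressing cells cannot be told apart.

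In untreated cells (NT+noGV) ARRDC1 was the most abundant of the 6 genes per kilobase, TXNIP was the least abundant in Endo, and the lines differed in most of the genes. Per kilobase of exon, ARRDC1 stood at 38.8 ± 1.76 CPM in Ecto, 73.5 ± 2.41 in Endo and 47.4 ± 0.91 in VK2 (SD, n = 3). MLXIP came next in each line, at 11.9, 9.01 and 9.33 CPM per kilobase, and the other 4 genes were between 1.35 and 6.68. Endo cells had the least TXNIP and the most ARRDC1.

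TXNIP was at 18.7, 17.8 and 19.8 CPM in the untreated Ecto libraries, at 5.09, 4.08 and 5.38 in Endo and at 9.59, 9.38 and 9.10 in VK2. On these values, which were scaled within each line, the lines did not overlap. In the edgeR fit of all 72 libraries, scaled together, Ecto was 3.56-fold above Endo (log2 difference 1.83 ± 0.2 (SE), adjusted p = 2.89e-11) and 1.75-fold above VK2 (adjusted p = 0.000102). In this test by edgeR on all 72 libraries, 6 of 6 genes differed between Ecto and Endo, 6 of 6 between Ecto and VK2 and 5 of 6 between Endo and VK2. Of these calls, that of ARRDC3 between Ecto and Endo was lost without replicate 3 (adjusted p = 0.0511), and those of MLXIP against VK2 were lost without replicate 1 (adjusted p = 0.0703 for Ecto and 0.0676 for Endo), the Endo one also without replicate 3. Of all genes tested, 63.9%, 63.8% and 59.6% differed, so differing between lines was common. ARRDC3 was 2.3-fold higher in Endo than in VK2, and ARRDC4 did not pass between these lines (log2 difference 0.17, 95% interval -0.03 to 0.37, adjusted p = 0.132).

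**Figure D1:**
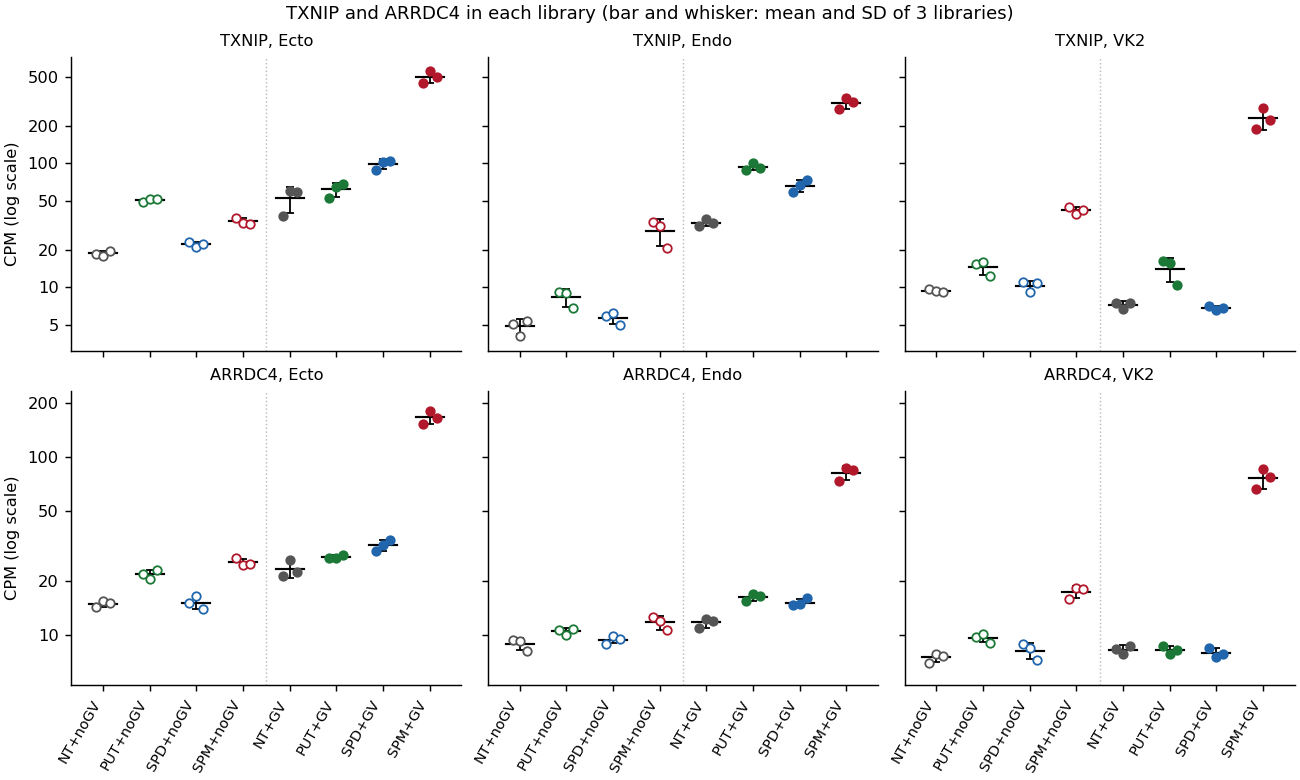
TXNIP (upper row) and ARRDC4 (lower row) in CPM on a log axis for each of the 3 cell lines, 1 point per library, open without and filled with bacteria, with the mean and SD of 3 libraries. The SPM+GV libraries stand above every other condition in all 3 lines, and in VK2 the SPM+noGV libraries are next for both genes.

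Bacteria alone (NT+GV against NT+noGV) raised TXNIP in Ecto and Endo cells, and TXNIP did not pass the test in VK2. With GV, TXNIP stood at 37.6, 60.01 and 58.8 CPM in Ecto, 31.01, 35.3 and 33.02 in Endo and 7.50, 6.67 and 7.47 in VK2. In Ecto and Endo every GV library was above every untreated one, and in VK2 every GV library was below them. The change was 2.77-fold in Ecto (log2 fold change 1.47 ± 0.14 (SE), edgeR adjusted p = 1.56e-07) and 6.83-fold in Endo (2.77 ± 0.2, adjusted p = 1.89e-09). In VK2 the log2 fold change was -0.37 ± 0.21 (adjusted p = 0.225).

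The response of TXNIP to bacteria differed between lines when the difference itself was tested. It was larger in Endo than in VK2 by a log2 difference of 3.15 ± 0.29 (adjusted p = 2.10e-12) and larger in Ecto than in VK2 by 1.86 ± 0.26 (adjusted p = 1.43e-07). Of all genes, 25.8% differed in this way between Endo and VK2 and 27.5% between Ecto and VK2. Among the 6 genes, 5 did in each of these pairs, and 2, TXNIP and MLXIP, between Ecto and Endo, where 28% of all genes did.

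The other alpha-arrestins changed less, and none of them passed the test in VK2. In Ecto, 4 of the 6 genes rose (20.9% of all genes did) and 2 fell (23.7%). In Endo, likewise, 4 rose (25.7%) and 2 fell (28.7%). In VK2 MLXIP fell, as did 12.5% of all genes, and 0 of 6 rose, where 13.9% did. By an unadjusted p under 0.05 edgeR gave 13 of the 18 gene and line pairs, the count it also gave after adjustment, and DESeq2 gave 14. The members' median log2 fold changes were 0.36, 0.32 and -0.07 in the order Ecto, Endo, VK2, beside medians over all genes between -0.001 and 0.003.

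ARRDC4 rose from 14.4, 15.5 and 15.1 CPM to 21.5, 26.5 and 22.7 in Ecto (1.57-fold, adjusted p = 1.97e-07) and 1.33-fold in Endo (adjusted p = 8.61e-05). ARRDC3 rose 1.32-fold in Ecto and 1.31-fold in Endo, and ARRDC2 rose 1.24-fold and 1.19-fold, the Endo call of ARRDC2 being lost without replicate 1 (adjusted p = 0.105). ARRDC1 moved the other way. It fell from 146.3, 141.0 and 154.3 CPM to 106.0, 92.2 and 103.9 in Ecto and from 286.6, 280.1 and 268.5 to 204.7, 189.8 and 198.6 in Endo. The groups did not overlap, and the log2 fold changes were -0.55 ± 0.065 (adjusted p = 1.70e-07) and -0.49 ± 0.038 (adjusted p = 1.85e-12). In VK2 the ARRDC1 groups overlapped. ARRDC1-AS1 fell beside ARRDC1 in Ecto (log2 fold change -0.55, adjusted p = 9.65e-08), and its part in the ARRDC1 value was not tested. MLXIP fell in all 3 lines, by at most 0.35 on the log2 scale, in Endo (adjusted p = 1.60e-08). The Ecto call of MLXIP was lost without replicate 1 (adjusted p = 0.22) or 2 (adjusted p = 0.0721), and the VK2 call without replicate 2 (adjusted p = 0.0791) or 3 (adjusted p = 0.156).

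**Figure D2:**
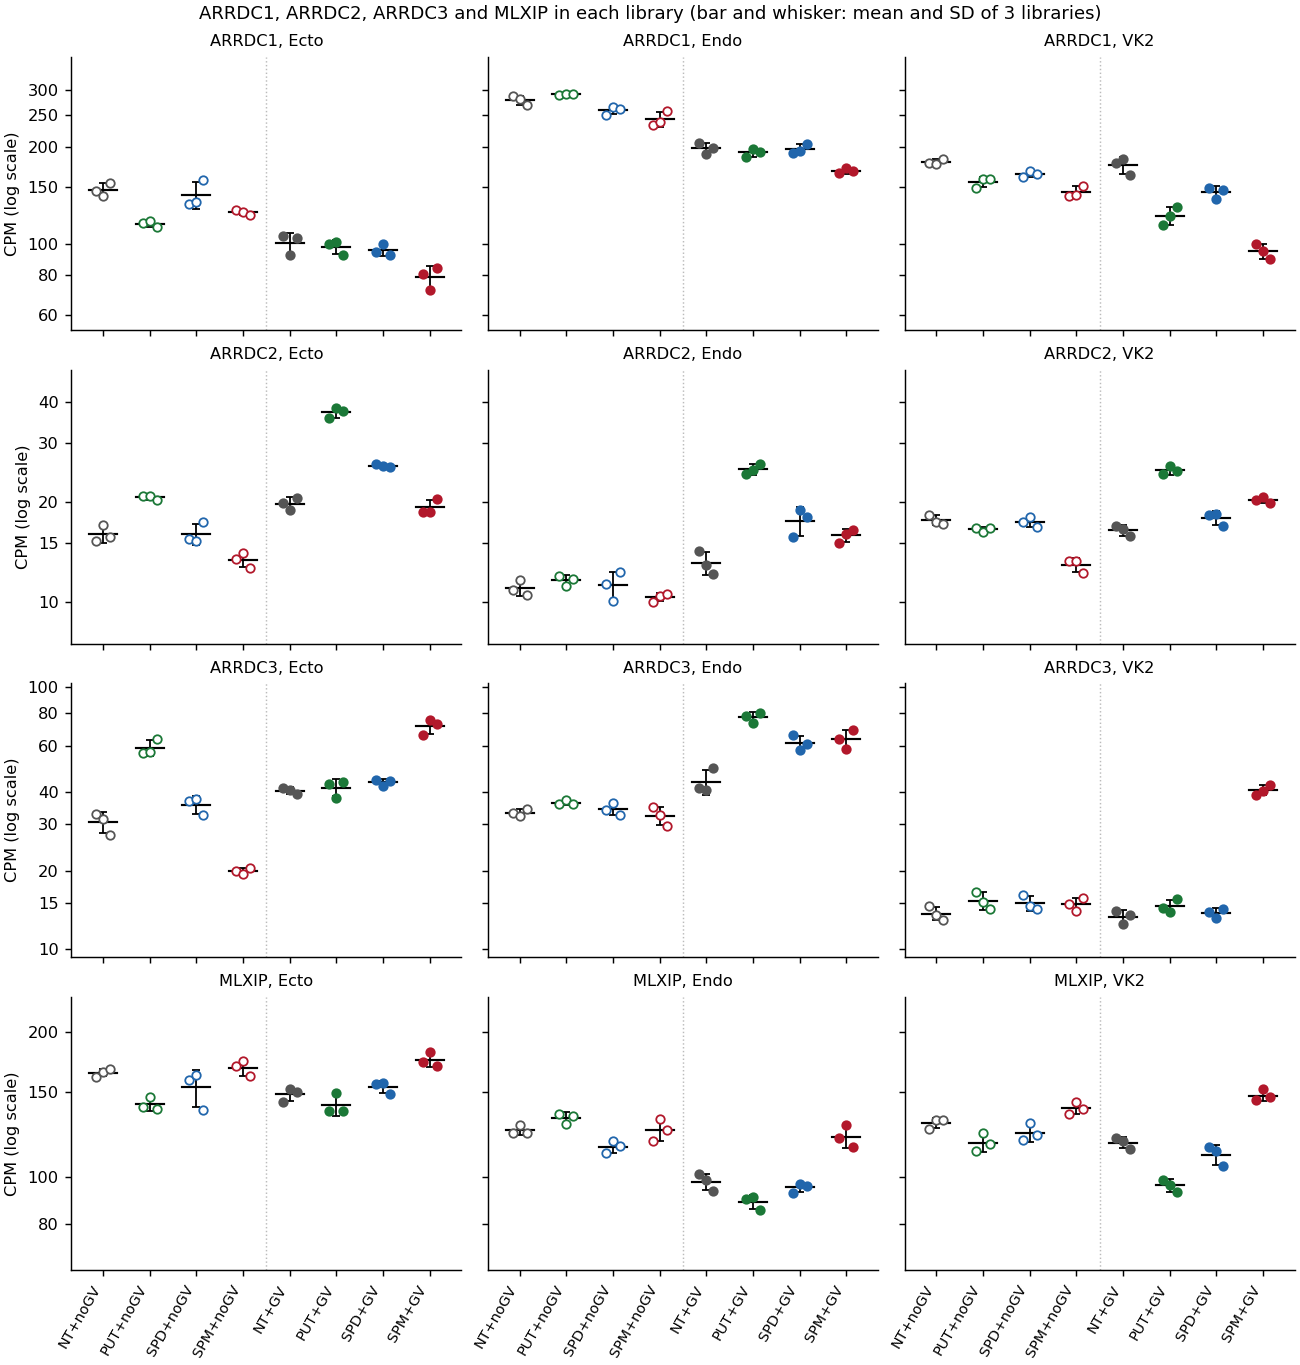
ARRDC1, ARRDC2, ARRDC3 and MLXIP (rows) in CPM on a log axis for the 3 cell lines, 1 point per library, open without and filled with bacteria, with the mean and SD of 3 libraries. ARRDC1 is lowest in SPM+GV in every line, ARRDC2 is highest in PUT+GV in every line, and ARRDC3 in VK2 departs from its other conditions in SPM+GV.

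Without bacteria, spermine raised TXNIP and ARRDC4 in all 3 lines, and spermidine at the same dose changed none of the 6 genes past the threshold. With SPM+noGV, TXNIP was at 36.4, 33.05 and 32.5 CPM in Ecto, 33.9, 31.4 and 20.6 in Endo and 44.1, 38.9 and 42.2 in VK2. All 9 of these libraries were above the untreated libraries of their line. The changes against NT+noGV were 1.8-fold in Ecto (log2 fold change 0.85 ± 0.15, edgeR adjusted p = 0.000315), 5.94-fold in Endo (2.57 ± 0.2, adjusted p = 1.36e-07) and 4.47-fold in VK2 (2.16 ± 0.16, adjusted p = 1.80e-08). The increase was smaller in Ecto than in Endo by a log2 difference of 1.73 (adjusted p = 4.96e-06), where 3.82% of all genes differed, and smaller than in VK2 by 1.31 (adjusted p = 7.55e-05), where 7.21% did. Between Endo and VK2, where 2.07% of all genes differed, TXNIP did not pass.

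ARRDC4 rose with spermine alone 1.71-fold in Ecto (adjusted p = 5.79e-08), 1.33-fold in Endo (adjusted p = 0.00048) and 2.34-fold in VK2 (adjusted p = 1.12e-11). In VK2 it went from 7.001, 7.82 and 7.67 CPM to 15.9, 18.4 and 18.2, with no overlap. ARRDC1 fell in all 3 lines, by 0.24, 0.19 and 0.32 on the log2 scale in Ecto, Endo and VK2, and without replicate 1 the Ecto call (adjusted p = 0.111) and the Endo call (adjusted p = 0.0689) were lost. ARRDC2 fell in Ecto (log2 fold change -0.25) and VK2 (-0.45, adjusted p = 2.47e-07), and the Ecto call was lost without replicate 1 (adjusted p = 0.0627) or 2 (adjusted p = 0.0648).

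ARRDC3 fell with spermine in Ecto cells, where it was at 32.8, 31.5 and 27.4 CPM untreated and at 19.84, 19.45 and 20.45 with spermine (1.53-fold lower, adjusted p = 1.03e-06). In Endo and VK2 its groups overlapped, and the Ecto response differed from each (log2 difference -0.59 and -0.74, adjusted p = 4.30e-05 and 1.49e-06), the first of these being lost without replicate 1 (adjusted p = 0.0763). MLXIP rose in VK2 by a log2 fold change of 0.10 (adjusted p = 0.0494), a call lost without any 1 of the replicates. Over the 6 genes, 2 rose and 3 fell in Ecto, where 11.3% and 12.2% of all genes did. In Endo 2 rose and 1 fell (8.02% and 10.1% of all genes), and in VK2 3 rose and 2 fell (17.4% and 15.6%).

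Spermidine without bacteria left TXNIP at 23.4, 21.1 and 22.3 CPM in Ecto, 5.82, 6.19 and 4.99 in Endo and 10.9, 9.20 and 10.8 in VK2. By edgeR 0 of the 18 gene and line pairs passed, with 4 at an unadjusted p under 0.05, and DESeq2 gave the same counts. Of all genes, 0.303% passed in Ecto, 0.181% in Endo and 0.46% in VK2. The largest log2 fold change of TXNIP was 0.24 in Ecto (95% interval -0.08 to 0.57).

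Spermidine and spermine differ in structure by 1 added aminopropyl group in spermine, and they were given at the same concentration for the same time. The direct comparison of SPM+noGV with SPD+noGV covered the 6 genes in 3 lines, 18 pairs in all, with p adjusted over all genes of the line. TXNIP was higher with spermine by 1.52-fold in Ecto (log2 difference 0.61, 95% interval 0.30 to 0.92, adjusted p = 0.00644), 5.08-fold in Endo (2.35, 1.94 to 2.76, adjusted p = 6.09e-07) and 4.03-fold in VK2 (2.01, 1.67 to 2.35, adjusted p = 6.10e-08). The Ecto call of TXNIP was lost without replicate 2 (adjusted p = 0.0909) or 3 (adjusted p = 0.121). ARRDC4 was higher with spermine by 1.68-, 1.26- and 2.13-fold (adjusted p = 2.10e-07, 0.00558 and 1.63e-10). ARRDC3 was lower with spermine in Ecto by 1.8-fold (adjusted p = 1.13e-08), and ARRDC2 was lower in Ecto and VK2. Of these, ARRDC4 in Endo was lost without replicate 1 (adjusted p = 0.124) and ARRDC2 in Ecto without replicate 3 (adjusted p = 0.131).

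Of the 18 pairs, 7 were higher and 4 lower with spermine. In Ecto 4 of 6 passed (20.4% of all genes), in Endo 2 (12.6%) and in VK2 5 (28.3%). ARRDC3 in VK2 did not separate the compounds (log2 difference -0.01, 95% interval -0.15 to 0.13), nor in Endo (-0.08, -0.23 to 0.08). ARRDC1 in Endo also missed the threshold (-0.09, -0.17 to -0.01, adjusted p = 0.124).

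Putrescine was given at a 10-fold higher concentration, so its values are set beside those of the other polyamines without a comparison. Without bacteria it raised TXNIP and ARRDC4 in all 3 lines. TXNIP was at 48.9, 51.8 and 51.9 CPM in Ecto, 9.23, 8.99 and 6.74 in Endo and 15.4, 15.99 and 12.2 in VK2, above the untreated libraries in each line. The changes were 2.7-fold (adjusted p = 1.68e-07), 1.71-fold (adjusted p = 0.0211) and 1.57-fold (adjusted p = 0.00698). The Endo call was lost without replicate 1 (adjusted p = 0.121) or 2 (adjusted p = 0.297), and the VK2 call without replicate 1 (adjusted p = 0.0647). For ARRDC4 the Endo call was lost without replicate 3 (adjusted p = 0.266). ARRDC3 rose 1.92-fold in Ecto, from a mean of 30.6 ± 2.8 to 58.8 ± 4 CPM (SD, n = 3, adjusted p = 5.32e-11). That response was larger than in Endo by a log2 difference of 0.79 (adjusted p = 1.70e-09) and than in VK2 by 0.77 (adjusted p = 6.74e-08). Between lines, the putrescine response of 24.4% (Ecto and Endo), 19.1% (Ecto and VK2) and 10.9% (Endo and VK2) of all genes differed.

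In VK2 ARRDC3 rose 1.12-fold (adjusted p = 0.0497), with groups that overlapped and a call lost without any 1 of the replicates. ARRDC2 rose 1.29-fold with putrescine in Ecto, and its log2 fold changes of 0.08 in Endo and -0.09 in VK2 did not pass. ARRDC1 and MLXIP fell in Ecto and VK2, each by at most 0.35 on the log2 scale, and the VK2 call of MLXIP was lost without replicate 3 (adjusted p = 0.0657). In Ecto 4 of the 6 genes rose and 2 fell, where 23.9% and 22.9% of all genes did. In Endo TXNIP and ARRDC4 rose and the other 4 did not pass (15.6% of all genes rose and 16.3% fell), and in VK2 3 rose and 2 fell (22% and 23%).

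**Figure D3:**
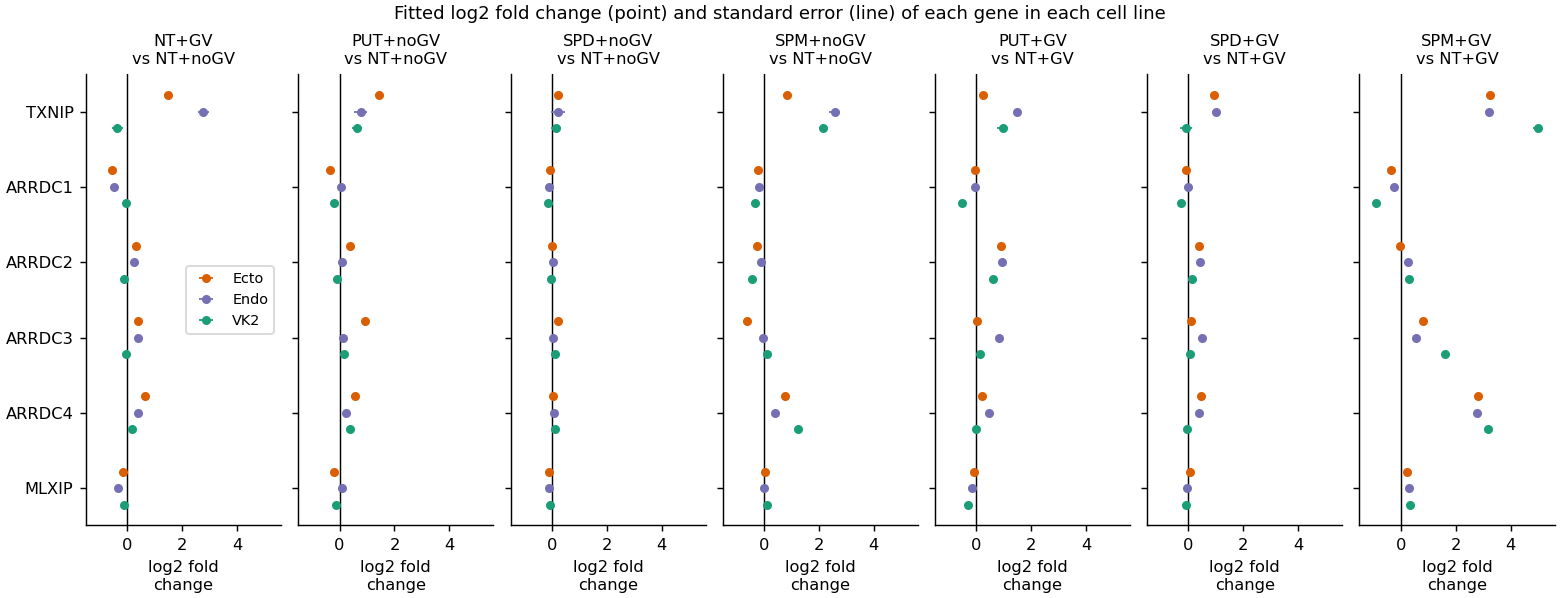
Fitted log2 fold change (x axis) of the 6 genes (rows) in the 3 cell lines (colours) for 7 comparisons (panels), with the standard error as a horizontal line where it is wider than the point. TXNIP and ARRDC4 lie between 2.79 and 4.99 in SPM+GV against NT+GV, and the largest value of SPD+noGV against NT+noGV is 0.24.

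Spermine followed by bacteria gave the highest TXNIP of all conditions in every line, and its high level in VK2 was known when TXNIP was chosen. The SPM+GV libraries held 444.2, 552.4 and 497.5 CPM in Ecto, 274.3, 337.5 and 310.3 in Endo and 188.5, 279.0 and 223.6 in VK2. The next highest condition had a mean of 98.6 CPM in Ecto (SPD+GV), 93.6 in Endo (PUT+GV) and 41.8 in VK2 (SPM+noGV). Against NT+GV the fold was 9.57, 9.26 and 31.7 in the order Ecto, Endo, VK2 (log2 fold changes 3.26 ± 0.14, 3.21 ± 0.14 and 4.99 ± 0.16). Against SPD+GV, the matched dose, it was 5.05, 4.68 and 33.7. In order of log2 fold change from the highest, TXNIP took place 545 of 19459 genes (Ecto), 117 of 18741 (Endo) and 146 of 18474 (VK2).

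ARRDC4 had the same form. It was at 153.9, 180.5 and 165.9 CPM in SPM+GV in Ecto, against 21.5, 26.5 and 22.7 in NT+GV. In Endo it was at 73.4, 86.8 and 84.4 CPM against 10.92, 12.37 and 12.02. In VK2 it was at 65.99, 85.8 and 76.7 CPM against 8.33, 7.79 and 8.73. The folds were 7.08, 6.9 and 9.13, so the lines lay closer together for ARRDC4 than for TXNIP. Within each line, the order of the 3 SPM+GV libraries was the same for both genes.

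ARRDC3 was also higher in SPM+GV than in NT+GV, by 1.76-fold in Ecto, 1.46-fold in Endo and 3.03-fold in VK2. Against SPD+GV the folds were 1.64, 1.04 and 2.94, and in Endo these groups overlapped. There PUT+GV was higher still, at a mean of 76.9 CPM against 63.7 in SPM+GV. In VK2 ARRDC3 was at between 39 and 42.6 CPM in SPM+GV, while the 21 other VK2 libraries ranged from 12.51 to 16.58. ARRDC1 was lower in SPM+GV, by 1.27-, 1.18- and 1.84-fold. In VK2 it lay below the range of the other conditions, with 99.7, 95.2 and 89.5 CPM in SPM+GV and 178.5, 183.6 and 163.5 in NT+GV. MLXIP was higher by a log2 difference of 0.24 to 0.32, and ARRDC2 by 0.27 in Endo and 0.30 in VK2, while in Ecto its groups overlapped (-0.04). Over all genes, 28.5% were called higher and 27.5% lower in Ecto, 21.9% and 21.1% in Endo, and 27.9% and 30.3% in VK2.

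The sum of the separate log2 fold changes of spermine and of bacteria was below the combined one for TXNIP and ARRDC4. For TXNIP the interaction, which is the log2 fold change of spermine with bacteria minus that without, stood at 2.41 ± 0.2 (Ecto), 0.64 ± 0.26 (Endo) and 2.83 ± 0.24 (VK2). For ARRDC4 it was 2.05, 2.38 and 1.97, with standard errors of at most 0.13. ARRDC3, which was lower with spermine alone in Ecto and higher with both, had interactions of 1.44, 0.58 and 1.48. These use the SPM+GV libraries and have no test here.

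With putrescine and bacteria, the gene that rose in every line was ARRDC2. It went from 19.8, 18.9 and 20.6 CPM in NT+GV to 35.7, 38.3 and 37.4 in PUT+GV in Ecto, from 14.2, 12.9 and 12.1 to 24.2, 24.9 and 26.01 in Endo, and from 16.96, 16.6 and 15.7 to 24.2, 25.6 and 24.7 in VK2. PUT+GV was its highest condition in each line. The changes were 1.88-fold (adjusted p = 1.48e-12), 1.92-fold (adjusted p = 1.45e-12) and 1.52-fold (adjusted p = 3.96e-11). Its putrescine effect was larger with bacteria than without in each line, by log2 differences of 0.54, 0.86 and 0.69 (interaction, adjusted p = 3.55e-05, 1.54e-07 and 6.63e-08), where 26.4%, 34.8% and 27.6% of all genes had an interaction in either direction.

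TXNIP rose with putrescine over bacteria alone in Endo, to 88.9, 100.5 and 91.3 CPM (2.82-fold, adjusted p = 5.89e-08), and in VK2, to 16.2, 15.7 and 10.48 CPM (1.95-fold, adjusted p = 0.000324). In Ecto the groups overlapped, with 52.9, 64.3 and 67.6 CPM in PUT+GV (log2 fold change 0.24, 95% interval -0.04 to 0.53, adjusted p = 0.131). There the interaction was -1.19 ± 0.2 (adjusted p = 0.000189). PUT+noGV, NT+GV and PUT+GV lay at means of 50.9, 52.1 and 61.6 CPM in Ecto, and the ranges of neighbours in this order overlapped.

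ARRDC3 rose in Endo, to 77.95, 72.96 and 79.66 CPM (1.76-fold, adjusted p = 3.89e-10), with log2 fold changes of 0.04 in Ecto and 0.12 in VK2 that did not pass. Its interaction with putrescine was -0.90 in Ecto (adjusted p = 2.47e-07) and 0.69 in Endo (adjusted p = 8.68e-06), so it had opposite signs in the cervical lines. ARRDC1 fell in VK2 to 114.4, 122.1 and 130.5 CPM (1.43-fold lower, adjusted p = 5.39e-11), while in Ecto and Endo the groups overlapped. That difference between lines was 0.43 for Ecto and 0.47 for Endo on the log2 scale (adjusted p = 6.32e-06 and 1.39e-06), where 24.8%, 35% and 22.4% of all genes differed between Ecto and Endo, Ecto and VK2, and Endo and VK2. Over the 6 genes, ARRDC2 and ARRDC4 rose in Ecto and the other 4 did not pass (31.5% of all genes rose and 24.9% fell). The ARRDC4 call in Ecto, a log2 fold change of 0.22, was lost without replicate 1 (0.11, adjusted p = 0.343) or 3 (adjusted p = 0.126). In Endo 4 rose and 1 fell (27.9% and 28.2%), and 2 rose and 2 fell in VK2 (29% and 31.4%).

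Spermidine with bacteria, which as a pretreatment alone changed none of the 6 past the threshold, raised TXNIP over bacteria alone in Ecto and Endo. TXNIP reached 88.01, 102.7 and 105.0 CPM in Ecto (1.89-fold, adjusted p = 0.000239) and 58.3, 66.25 and 72.6 in Endo (1.98-fold, adjusted p = 0.000168), above every NT+GV library of the line. In VK2 it was at 7.07, 6.58 and 6.84 CPM (log2 fold change -0.09, 95% interval -0.55 to 0.37). ARRDC2 and ARRDC4 rose in the same lines, ARRDC2 by 1.3- and 1.34-fold and ARRDC4 by 1.36- and 1.29-fold. ARRDC3 rose in Endo (1.41-fold, adjusted p = 3.91e-05), and ARRDC1 fell in VK2 (1.21-fold lower, adjusted p = 0.00015). The Ecto call of ARRDC2 was lost without replicate 1 (adjusted p = 0.0565), and the VK2 call of ARRDC1 without replicate 2 (adjusted p = 0.0718).

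With spermidine and bacteria, 3 of the 6 genes passed in Ecto, where 13.1% of all genes did, and 4 in Endo, where 13.9% did, all of them higher. In VK2 1 of 6 passed, where 12.7% of all genes did. Whether spermidine acted differently with than without bacteria was tested as an interaction. For TXNIP it did not pass in any line (log2 differences of 0.68, 0.76 and -0.24, adjusted p = 0.0741, 0.19 and 0.819). It passed for ARRDC2 in Ecto (0.37, adjusted p = 0.0198) and Endo (0.39, adjusted p = 0.0376), for ARRDC4 in Ecto (0.41, adjusted p = 0.0396) and for ARRDC3 in Endo (0.45, adjusted p = 0.0163), and each of these calls was lost when some 1 replicate was left out. Of all genes, 3.13% passed in Ecto, 3.45% in Endo and 0.352% in VK2.

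Bacteria were also compared within each polyamine. After putrescine they raised TXNIP 11.3-fold in Endo (adjusted p = 3.15e-12), and in Ecto, where putrescine alone had already raised it, the log2 fold change was 0.28 (adjusted p = 0.0921). ARRDC2 rose with bacteria after putrescine in all 3 lines, by 1.8-, 2.15- and 1.5-fold. Of the 6 genes 4, 6 and 4 passed in Ecto, Endo and VK2, where 52.3%, 65.6% and 49.6% of all genes did. After spermidine, bacteria raised TXNIP 4.42-fold in Ecto (adjusted p = 4.46e-10) and 11.6-fold in Endo (adjusted p = 1.34e-11), and in VK2 TXNIP fell 1.52-fold (adjusted p = 0.0261), a call lost without any 1 of the replicates (adjusted p = 0.0513 to 0.145). There 5, 6 and 3 of the 6 passed, where 56.4%, 60.2% and 35% of all genes did. These comparisons share libraries with those above.

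The order of the 8 conditions shows where neighbours could not be separated. For TXNIP in Ecto it ran from SPM+GV through SPD+GV, PUT+GV, NT+GV, PUT+noGV, SPM+noGV and SPD+noGV to NT+noGV, and the range of NT+GV overlapped those of PUT+GV and PUT+noGV, which did not overlap each other. In Endo it ran SPM+GV, PUT+GV, SPD+GV, NT+GV, SPM+noGV, PUT+noGV, SPD+noGV, NT+noGV, with overlap of NT+GV and SPM+noGV and of the last pair. In VK2 it ran SPM+GV, SPM+noGV, PUT+noGV, PUT+GV, SPD+noGV, NT+noGV, NT+GV, SPD+GV. There the stretch from PUT+noGV to NT+noGV overlapped from each neighbour to the next, as did NT+GV and SPD+GV. MLXIP had no condition far from the others, with group means from 88.8 to 175 CPM over all lines.

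Genes around the pathway were read from lists, by how many passed in each direction. Of 16 genes of glucose uptake and entry into glycolysis, with bacteria alone 1 rose and 9 fell in Ecto, 5 rose and 5 fell in Endo, and 9 rose and 1 fell in VK2. Of all genes, 20.9% rose and 23.7% fell in Ecto, 25.7% and 28.7% in Endo, and 13.9% and 12.5% in VK2. SLC2A1, the GLUT1 transporter, rose in VK2 (log2 fold change 0.40 ± 0.041, adjusted p = 3.71e-09), and SLC2A6 fell in Ecto (-0.40, adjusted p = 6.85e-06). With putrescine over bacteria alone, 4, 2 and 3 of these 16 rose (31.5%, 27.9% and 29% of all genes) and 9, 12 and 12 fell (24.9%, 28.2% and 31.4%) in Ecto, Endo and VK2, with list medians of -0.21, -0.44 and -0.38 beside 0.07, 0.03 and 0.01 for all genes. PFKL, a phosphofructokinase, fell by 0.93 on the log2 scale in Endo, while SLC2A12 rose by a log2 fold change of 1.92.

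With SPM+GV against NT+GV, 2, 4 and 3 of the 16 glucose genes rose and 8, 3 and 10 fell in Ecto, Endo and VK2. The shares of all genes that rose were 28.5%, 21.9% and 27.9%, and those that fell 27.5%, 21.1% and 30.3%. PFKFB3, which makes the activator of phosphofructokinase, rose in all 3 lines (log2 fold changes 1.24, 0.68 and 1.05). The list's median was -0.14 in Ecto and in VK2, beside -0.02 for all genes. Spermine alone lowered HKDC1, a hexokinase, in all 3 lines (log2 fold changes -1.44, -0.87 and -0.80), with 1, 3 and 5 of the 16 genes higher (11.3%, 8.02% and 17.4% of all genes) and 5, 6 and 6 lower (12.2%, 10.1% and 15.6%).

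Of 12 genes known as targets of ChREBP, the liver relative of MondoA, 9 were tested in each line. With bacteria alone 3, 3 and 2 rose in Ecto, Endo and VK2 (20.9%, 25.7% and 13.9% of all genes) and 6, 6 and 5 fell (23.7%, 28.7% and 12.5%), among the latter the fat-synthesis genes FASN (log2 fold change -1.42 in Ecto, adjusted p = 6.09e-14, and -1.10 in Endo) and SCD (-1.14 and -1.07). With SPM+GV against NT+GV, RGS16 rose in all 3 lines (2.37, 1.41 and 2.27) and so did KLF10 (1.46 in Endo and 1.43 in VK2). RGS16 encodes a regulator of G-protein signalling and KLF10 a zinc-finger factor. In that comparison 2, 3 and 3 of the 9 rose (28.5%, 21.9% and 27.9% of all genes) and 4, 2 and 6 fell (27.5%, 21.1% and 30.3%). With spermine alone 1, 2 and 7 of the 9 rose in Ecto, Endo and VK2 (11.3%, 8.02% and 17.4% of all genes). In the same comparison 3, 0 and 1 fell (12.2%, 10.1% and 15.6%).

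In the thioredoxin system, to which the partner of TXNIP belongs, TXNRD1 encodes the cytosolic thioredoxin reductase. It rose with bacteria alone in Ecto (log2 fold change 0.52), Endo (0.35) and VK2 (0.35), with spermine alone (0.38, 0.37 and 0.89) and with SPM+GV over NT+GV (0.34, 0.68 and 0.99). Of the 11 genes, with bacteria alone 2, 4 and 4 rose in Ecto, Endo and VK2 (20.9%, 25.7% and 13.9% of all genes), and 5 fell in Ecto (23.7%) and 3 in Endo (28.7%). With spermine alone 1, 2 and 5 rose (11.3%, 8.02% and 17.4%) and 1, 0 and 1 fell (12.2%, 10.1% and 15.6%). With SPM+GV over NT+GV 1, 2 and 3 rose (28.5%, 21.9% and 27.9%) and 2, 2 and 4 fell (27.5%, 21.1% and 30.3%), so the list did not rise with TXNRD1.

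Of 12 MAX and MLX network factors, 11 were tested in Ecto and 12 in the other lines. With spermine alone 1, 0 and 0 rose in Ecto, Endo and VK2 (11.3%, 8.02% and 17.4% of all genes), and 4, 4 and 5 fell (12.2%, 10.1% and 15.6%). MXI1, a MAX partner that represses MYC targets, fell in all 3 lines (-0.30, -0.47 and -0.69). With SPM+GV over NT+GV, 3, 3 and 4 rose (28.5%, 21.9% and 27.9% of all genes) and 6, 5 and 5 fell (27.5%, 21.1% and 30.3%). MXD1, likewise a repressor, rose by 1.17 in Ecto, and MYCL, a MYC relative, rose in all 3 lines.

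Among other arrestins, ARRB1 and ARRB2, the beta-arrestins, were tested, and ARRDC5, SAG and ARR3 had at most 8 counts in any library. With putrescine over bacteria alone both rose in all 3 lines, ARRB1 by log2 fold changes of 0.68, 1.38 and 0.76 and ARRB2 by 0.41, 0.26 and 0.17. In that comparison 31.5%, 27.9% and 29% of all genes rose. Of 12 NEDD4-family ligases and ARRDC1 vesicle partners, 11 of them tested in Endo, 5, 3 and 3 rose and 5, 5 and 4 fell with SPM+GV over NT+GV, beside 28.5%, 21.9% and 27.9% of all genes that rose and 27.5%, 21.1% and 30.3% that fell. NEDD4L, a ligase that removes sodium channels, rose in all 3 lines (0.92, 0.87 and 0.85) and so did NEDD4 (0.52, 0.77 and 0.65). TSG101, the ESCRT protein that ARRDC1 binds for budding, fell in VK2 (-0.61, adjusted p = 8.17e-14).

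Of 6 receptors and transporters known as alpha-arrestin cargo, 5 of them tested in VK2, 1 rose in each line with putrescine over bacteria alone and 2, 3 and 3 fell in Ecto, Endo and VK2. Beside these, 31.5%, 27.9% and 29% of all genes rose and 24.9%, 28.2% and 31.4% fell. The list's medians were 0.20, -0.08 and -0.38 beside 0.07, 0.03 and 0.01 for all genes. Among those that fell, ITGB4, integrin beta4, did so in all 3 lines (log2 fold changes -0.74, -0.57 and -1.08), and also with spermidine over bacteria alone (-0.42, -0.27 and -0.34).

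Of 7 genes induced by glucocorticoids, 1 rose in each line with bacteria alone and 4, 6 and 4 fell in Ecto, Endo and VK2. Of all genes, 20.9%, 25.7% and 13.9% rose and 23.7%, 28.7% and 12.5% fell. With spermine alone 3, 4 and 5 fell (12.2%, 10.1% and 15.6% of all genes) and 0, 0 and 2 rose (11.3%, 8.02% and 17.4%). TSC22D3, also called GILZ, fell in both comparisons in every line, with log2 fold changes of -0.96 in Ecto and -0.66 in VK2 with bacteria and -1.39 and -0.83 with spermine. The antisense gene ARRDC1-AS1 fell with SPM+GV over NT+GV in all 3 lines (-0.19, -0.51 and -0.83), the direction of ARRDC1 itself. With PUT+GV over NT+GV it rose in Ecto (0.69) and Endo (0.46), where the ARRDC1 groups overlapped, while with putrescine alone it fell in Ecto (-0.29, adjusted p = 0.000382).

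How the genes moved with each other was read as correlations of log2 CPM centred on each line, which describe differences between conditions as much as between libraries and have no p. The 9 SPM+GV libraries stood apart, so they were separated from the other 63. Over the 63, TXNIP and ARRDC4 had r = 0.833 (Spearman rho 0.863), with 0.902 in Ecto, 0.947 in Endo and 0.896 in VK2 (21 libraries each). Within the 9 SPM+GV libraries, again centred on each line, r was 0.980. TXNIP and ARRDC1 ran in opposite directions in Ecto (r = -0.915) and Endo (-0.898) and less so in VK2 (-0.390). MLXIP did not track TXNIP in 1 direction, with r = -0.426 in Ecto, -0.799 in Endo and 0.393 in VK2.

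**Figure D4:**
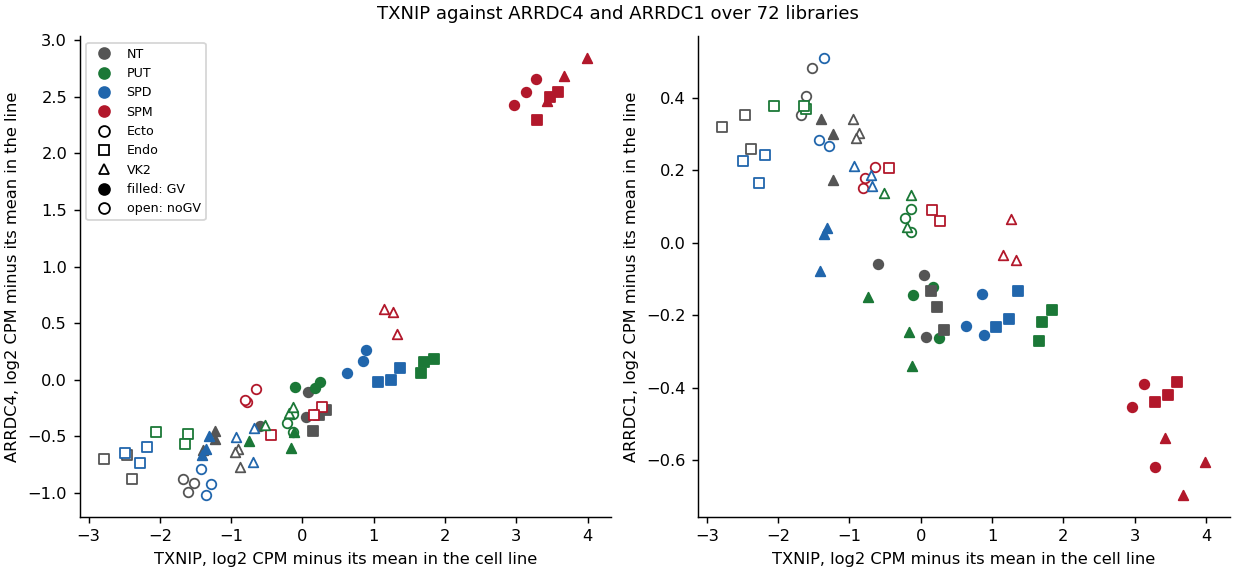
TXNIP (x axis) against ARRDC4 (left) and ARRDC1 (right) in 72 libraries, as log2 CPM minus the mean of the gene in its cell line, with shapes for lines, colours for pretreatments and filled symbols for bacteria. The 9 SPM+GV libraries lie apart at the high end of TXNIP and ARRDC4 and the low end of ARRDC1, and the other libraries run upward on the left and downward on the right.

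Over all 72 libraries and 16963 genes, the genes most like TXNIP by Pearson r were CD83, RFPL4A, RASD1, ORC6 and SRSF3 (0.930 to 0.915). Without the SPM+GV libraries these had r between 0.785 and 0.830. By Spearman rho CD83 took place 5 and the others places 10 to 22. By Pearson r ARRDC4 took place 16 among the genes like TXNIP, and TXNIP place 89 among those like ARRDC4. The genes most like ARRDC4 were GADD45B, FOS, JUN, CCNL1 and ICAM4, which include immediate early genes, and of these FOS had r = 0.916 without the SPM+GV libraries and CCNL1 0.690. By Spearman rho FOS took place 1, and JUN, GADD45B, ICAM4 and CCNL1 took places 9, 11, 79 and 81. ARRDC1 was most like SUMF2, MICALL1, VPS51, BTBD6 and ACSF2, all with r of at least 0.925 also without SPM+GV.

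ARRDC2 was most like TNK1, ZNF45, MICA, ULBP3 and ASB6, of which MICA and ULBP3 encode ligands of the receptor NKG2D on lymphocytes. These kept r between 0.910 and 0.935 over the 63 libraries, though by Spearman rho over all libraries MICA took place 69 and ULBP3 place 15. ARRDC3 was most like ZNF844, CDKN2AIP, RIT1, VGF and SNAI1, and MLXIP was most like SMURF2, TMEM131, MTCL1, NFIB and CLASP1. SMURF2 is a NEDD4-family ligase. Its r with MLXIP was 0.865 over all libraries and 0.873 without SPM+GV.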

How the data were processed

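Total RNA libraries (CORALL kit) of 3 cell lines were read as a table of 62266 genes by 72 libraries. The deposited values are expected counts that the authors estimated with Salmon on annotation release 44 (GRCh38.p13, from the submitters' notes) and summarised to genes with tximeta. Whether reads were collapsed by molecular identifier is not stated, so library totals count reads and cover counting error only. Library totals ranged from 20152143 to 42767996 (median 31872238.5). The other deposited table holds sample descriptions and was not used for groups, which come from the GEO labels.

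The 6 genes and all lists were chosen with earlier results of these data known. The deposited counts were whole numbers and were used as read. Each line was fitted on its own 24 libraries with edgeR 4.0.16 (R 4.3.3, limma 3.58.1): filterByExpr on 8 groups, TMM factors and the robust quasi-likelihood test, with p adjusted by Benjamini-Hochberg over all 19459 (Ecto), 18741 (Endo) and 18474 (VK2) genes tested. Differences between lines were fitted on all 72 libraries (21195 genes). The threshold was an adjusted p of 0.05, and rose, fell and passed refer to it. Standard errors and 95% intervals come from the same fits. CPM divide counts by the TMM-scaled library size, and per-kilobase levels divide by the merged exon length. The factors behind the CPM were fitted within each line, so CPM of different lines are not on exactly the same scale as the folds between lines. Named list genes were up to 3 of each list with the largest change past the threshold, and like genes were the 5 with the highest Pearson r of log2 CPM (prior count 2) centred on each line. Lists cover MAX and MLX network factors, glucose uptake, ChREBP targets, the thioredoxin system, other arrestins, NEDD4-family ligases, cargo, glucocorticoid-induced genes and antisense neighbours. A gene of the cargo list is not reported here. Promoter windows came from RefSeq on GRCh38.p14, which matched all 6 genes.

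Alternatives were DESeq2 1.42.0, its size factors in edgeR, no filter on low counts, a model of all libraries, a 2-fold limit, a replicate block and leaving out each replicate. Fits were tested on simulated data. Replicate numbers paired the libraries with small correlations, though in each line most libraries matched best with their own number. Within a line, the deviations of same-numbered libraries had median correlations of 0.015 to 0.027, and those of differently numbered libraries -0.017 to -0.009. At most 7 of 84 same-numbered pairs in a line exceeded 0.1. Of the 24 libraries of a line, 16 (Ecto), 21 (Endo) and 18 (VK2) matched best with their own number. The main fits had no term for this structure, and the replicate block did.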

Additional observations from a re-analysis of the deposited data

Results flagged for a closer look

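The response of a gene differed between lines in 38 of 72 tests of the difference itself (edgeR on all 72 libraries, Benjamini-Hochberg adjusted p under 0.05). Shares of all genes that differed are given in the order Ecto and Endo, Ecto and VK2, Endo and VK2. They were 28%, 27.5% and 25.8% with bacteria alone and 24.8%, 35% and 22.4% with putrescine over bacteria alone. Without bacteria they were 24.4%, 19.1% and 10.9% with putrescine and 3.82%, 7.21% and 2.07% with spermine. Each difference below is the log2 fold change in the line named first minus that in the line named second.

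With bacteria alone, TXNIP differed by -1.29 between Ecto and Endo, 1.86 between Ecto and VK2 and 3.15 between Endo and VK2. ARRDC1 differed by -0.49 (Ecto and VK2) and -0.44 (Endo and VK2), ARRDC2 by 0.44 and 0.36 and ARRDC3 by 0.46 and 0.44 in the same pairs of lines. ARRDC4 differed by 0.52 between Ecto and VK2, and MLXIP by 0.22 between Ecto and Endo and -0.21 between Endo and VK2. Leaving out a replicate lost the difference of ARRDC2 between Endo and VK2 (without 1), of ARRDC4 (without 2) and of MLXIP (Ecto and Endo without 2 or 3, Endo and VK2 without 1 or 2).

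With putrescine over bacteria alone, TXNIP differed by -1.30 (Ecto and Endo) and -0.77 (Ecto and VK2). ARRDC1 differed by 0.43 (Ecto and VK2) and 0.47 (Endo and VK2), and ARRDC2 by 0.26 and 0.34 in the same pairs. ARRDC3 differed by -0.82 (Ecto and Endo) and 0.69 (Endo and VK2), ARRDC4 by 0.48 (Endo and VK2) and MLXIP by 0.18 (Ecto and VK2). Lost on leaving out a replicate were those of TXNIP between Ecto and VK2 (without 2, adjusted p = 0.231), of ARRDC2 between Ecto and VK2 (without 1 or 2), of ARRDC4 (without 3) and of MLXIP (without 1 or 2).

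With putrescine without bacteria, TXNIP differed by 0.77 (Ecto and VK2), ARRDC1 by -0.44 (Ecto and Endo) and 0.29 (Endo and VK2), and ARRDC2 by 0.27 (Ecto and Endo) and 0.46 (Ecto and VK2). ARRDC3 differed by 0.79 (Ecto and Endo) and 0.77 (Ecto and VK2), and MLXIP by -0.33 (Ecto and Endo) and 0.24 (Endo and VK2). The TXNIP difference was lost without replicate 2 (adjusted p = 0.123) or 3 (adjusted p = 0.148), that of ARRDC1 between Endo and VK2 without 1 (adjusted p = 0.106), that of ARRDC2 between Ecto and Endo without 1 or 2 and that of MLXIP between Endo and VK2 without 1 or 3.

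With spermine without bacteria, TXNIP differed by -1.73 (Ecto and Endo) and -1.31 (Ecto and VK2) and ARRDC3 by -0.59 and -0.74 in the same pairs. ARRDC4 differed by -0.45 (Ecto and VK2) and -0.80 (Endo and VK2), and ARRDC2 by 0.37 (Endo and VK2). The ARRDC2 difference was lost without any 1 of the replicates (adjusted p = 0.0885 to 0.271), that of ARRDC4 between Ecto and VK2 without 2 (adjusted p = 0.156) or 3 (adjusted p = 0.203), and that of ARRDC3 between Ecto and Endo without 1 (adjusted p = 0.0763).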

How the results depend on the processing

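No result changed direction past a threshold under any alternative run. Of 198 tests within a line, DESeq2 lost 5 calls and gained 7, its size factors in edgeR lost 5 and gained 2, no filter on low counts lost 5 and gained 4, and a model of all libraries lost 3 and gained 5. Leaving out replicate 1, 2 or 3 lost 22, 21 and 16 calls. Of 90 tests between lines, leaving out replicate 1, 2 or 3 lost 11, 10 and 8 calls, no filter on low counts lost 9 and gained 4, DESeq2 lost 1 and gained 1, and its size factors in edgeR lost 1. Over gene and line pairs, the count that fell was 5 with bacteria alone (3 to 4 without a replicate), 7 for the putrescine interaction (3 to 4), 1 for spermidine with bacteria (0 to 1), 6 for bacteria after spermidine (3 to 5) and 6 for spermine alone (3 to 6). The count that rose was 4 for the spermidine interaction (1 to 2). Between lines, putrescine alone was higher in 7 (4 to 5) and spermine alone in 1 (0 to 0). With a model of all libraries, 1 pair rose with spermidine alone, against 0. Shares of all genes in the alternative runs are not given here, so counts from those runs cannot be set against a background.

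With a 2-fold limit as well, the pairs that rose and fell were 2 and 0 with bacteria alone, 1 and 0 with putrescine and bacteria, 0 and 0 with spermidine and bacteria, 1 and 0 with putrescine alone, 3 and 0 with spermine alone and 3 and 0 for spermine against spermidine. They were 3 and 0 for bacteria after putrescine and after spermidine, 0 and 1 for the putrescine interaction and 0 for the spermidine interaction. Untreated levels gave 2 and 2, and responses between lines 2 and 1 for bacteria, 0 and 1 for putrescine with bacteria, 0 and 0 without, and 0 and 2 for spermine alone. Shares of all genes under the 2-fold limit are not given here. Whether these counts are above or below such shares therefore cannot be judged.

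The replicate block gave 8 rises and 5 falls with bacteria alone and 5 rises for the spermidine interaction. It added 3 of 198 calls within lines and 2 of 90 between lines and removed none. Leaving out Ecto SPD+noGV replicate 3, an alternative chosen after seeing the data, lost 1 call of 30. Each described value was compared with its value in each alternative run, which gave 702 comparisons. In 654 of them it moved by less than 1 SD, and no value whose main size was above 1 SD changed sign. Sign changes of smaller described values were not counted. Among tested values of any size there were 44 sign changes, none of them with a call in either run. With 3 libraries a group, small differences may go undetected, and estimated counts do not carry the uncertainty of assigning reads between overlapping genes.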
